A study of Danio rerio with 12 samples.

Results

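Crystallins are the main soluble proteins of the eye lens, and their messenger RNA was followed here in whole zebrafish larvae given bisphenol A (BPA), a building block of polycarbonate that is a weak ligand of estrogen receptors. The members were chosen by name, as the genes whose symbol begins with cryaa, cryab, cryba, crybb, crygm, crygn or crygs. This gave 57 of the 31540 genes in the files, of which 46 had enough counts to be tested, among 22399 genes tested in all. The 12 libraries held poly-A RNA of wild-type larvae at 5 days post fertilization, each from a pool of 10 whole larvae kept in the treated medium between day 2 and day 5. There were 4 groups of 3 libraries: a solvent control without BPA, and BPA at 0.1, 1 and 4 mg/L. All groups, the control included, received 0.2% DMSO. Within each group the titles number the libraries 1 to 3, and the labels do not say what the numbers stand for. Nor do they state whether the pools came from separate clutches or dishes, so the p-values measure only the spread between these pools.

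The lens is built of fibre cells, which fill with crystallins, lose their organelles and keep the same proteins for life. Alpha crystallins are small heat shock proteins that hold damaged proteins in solution. Beta and gamma crystallins are structural proteins of a shared fold, and the gamma M crystallins are methionine-rich proteins that dominate the hard, strongly refracting lens of fishes.

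Levels are given as CPM, counts per M (mega) counts of the library after TMM scaling, a correction for differences in library composition. CPM is not divided by transcript length, so levels are compared between libraries for 1 gene and not between genes. The libraries held 21.95 to 34.22 M counts, and crystallins took 0.761% of them in 4 mg/L number 1 and 1.435% in 1 mg/L number 2, with the other libraries between. No 2 libraries of a group agreed within sampling noise (their chi-square divided by its degrees of freedom was 26.2 to 75, using genes of 30 counts or more), and each of the 12 was taken as its own replicate. In a whole larva a change in the amount of lens and a change of RNA per lens cell cannot be told apart. All 14 lens fibre genes that are no crystallins and were found in the files, among them the water channel genes mipa and mipb and the membrane protein gene lim2.4, were detected in every library.

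The crystallin counts were unevenly spread over the classes. The 21 near-identical copies named crygm2d1 to crygm2d21 together held 53.7% to 67.5% of all crystallin counts of a library, and all 21 were tested, with mean levels of 93.9 CPM (crygm2d6) to 559 CPM (crygm2d2). The 7 beta A crystallins held 17.8% to 21.0% and the 6 beta B crystallins 8.38% to 18.4%. Both gamma N crystallins together held 2.86% to 3.89%, and the 14 gamma M crystallins outside the d copies 2.85% to 3.48%. The 3 alpha crystallins held 0.177% to 0.336%. How the counting shared out reads that map to several copies is not given in the sources used here, so the level of a single crygm2d copy is uncertain, and the sum of the copies would be too low if such reads were left out.

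Summed by class, the libraries overlapped between doses. The crygm2d copies reached 7932, 5699.6 and 5328 CPM in the control libraries, 8043, 5534 and 5975 at 0.1 mg/L, 7368, 7251 and 5745 at 1 mg/L and 6510.4, 6603 and 4237 at 4 mg/L, written in the order number 3, 2 and 1. For the beta A crystallins the sums were 2215, 1993 and 1822 CPM in the control libraries, 2124, 1915 and 1973 at 0.1 mg/L, 1956, 2730.4 and 1956 at 1 mg/L and 1932, 2331 and 1379 at 4 mg/L. The beta B crystallins summed to 995, 1176 and 1279 CPM in the control libraries, 1041, 1351 and 1295 at 0.1 mg/L, 976, 2487 and 1364 at 1 mg/L and 1119, 1889 and 818 at 4 mg/L. In each of these 3 classes 4 mg/L number 1 was the lowest of all 12 libraries, and 1 mg/L number 2 was the highest for both beta classes. The ranges of the 4 mg/L libraries therefore enclosed or overlapped those of the controls in every class with tested members. Some extremes depended on the scaling. Per M of the unscaled library total, 1 mg/L number 3 was the lowest for beta B (880, against 909 in 4 mg/L number 1). On that measure 1 mg/L number 2 was the highest for the crygm2d copies too.

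**Figure D1:**
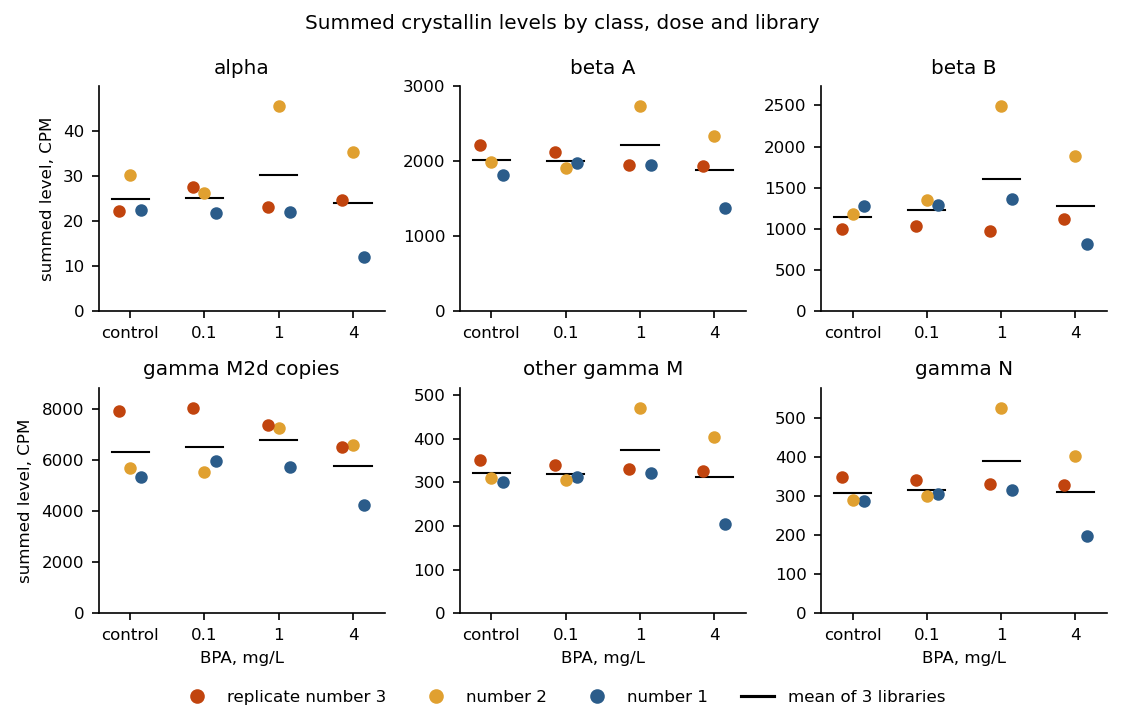
Summed level of 6 crystallin classes in CPM on linear axes that start at 0, by BPA dose in mg/L. Each point is 1 library, coloured by its replicate number, and each line is the mean of 3 libraries. The points of 4 mg/L spread as widely as 4237 to 6603 CPM for the gamma M2d copies and enclose or overlap the controls in each class, and 1 mg/L number 2 stands above its group in the alpha, beta A, beta B, other gamma M and gamma N classes.

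The other 11 members were too low for the test and are given as raw counts. All 4 gamma S crystallins belonged here, with 8 (crygs1), 25 (crygs2), 7 (crygs3) and 19 (crygs4) counts over the 12 libraries. The mammalian gamma S gene is a major crystallin of the outer lens cortex. In zebrafish at 5 days crygs2 had 1, 2 and 1 counts in the control libraries, 3, 3 and 3 at 0.1 mg/L, 1, 1 and 3 at 1 mg/L and 2, 1 and 4 at 4 mg/L. The counts of crygs4 were 1, 4 and 1 counts in the control libraries, 1, 1 and 2 at 0.1 mg/L, 0, 0 and 1 at 1 mg/L and 3, 2 and 3 at 4 mg/L. The alpha B gene cryaba, whose expression is centred on the lens in zebrafish, had 29 counts in all: 4, 3 and 2 counts in the control libraries, 1, 0 and 4 at 0.1 mg/L, 3, 2 and 4 at 1 mg/L and 1, 3 and 2 at 4 mg/L. The beta B genes crybb2 and crybb3 had 84 and 83 counts over the 12 libraries, and of the gamma M genes crygm1 had 45, crygm2a 26, crygm3 85 and crygm6 2. Such counts allow no statement on dose.

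The comparison with the control asks whether BPA shifts lens transcripts. At 4 mg/L, 0 of the 46 crystallins passed an adjusted p of 0.05, the threshold for a call, in a model with dose group alone (quasi-likelihood F test of edgeR, Benjamini-Hochberg adjusted over all genes tested). The percent called among all genes was 0.281% (63 of 22399). At an unadjusted p under 0.05 there were 2 crystallins (12.4% of all genes), DESeq2 and limma-voom called 0, and the smallest adjusted p was 0.238. The median log2 fold change of the 46 was -0.03, against -0.0029 over all genes tested, and 17 of the 46 lay above 0. It was 0.19 without 4 mg/L number 1 and -0.23 without 4 mg/L number 2, so its sign rested on single libraries. With no scaling factors the medians were 0.10 for the crystallins and 0.13 for all genes, and 46 of the 63 genes then called were higher at 4 mg/L, against 38 of 63 with TMM. For 35 of the 46 the 95% interval of the log2 fold change lay between -1 and 1, so for these a change beyond that size was outside the interval. Smaller ones could not be told from the spread between libraries. The exception was crygm2d1, whose interval, given below, did not include 0, although it was not called in this model.

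Of the alpha crystallins, cryaa (ENSDARG00000053502), the alpha A chaperone of the lens, was at 21.2, 29.6 and 22.2 CPM in the control libraries, 26.4, 25.6 and 21.0 at 0.1 mg/L, 21.8, 44.6 and 21.0 at 1 mg/L and 24.0, 34.6 and 11.7 at 4 mg/L (numbers 3, 2 and 1). The 4 mg/L libraries enclosed all controls and held both the lowest and the second highest value of the 12. Its log2 fold change at 4 mg/L was -0.06 (SE 0.35, adjusted p = 0.96 in edgeR), and it was -0.45 without 4 mg/L number 2 and 0.27 without 4 mg/L number 1. The other alpha B gene, cryabb, is expressed more widely than the lens and had 0.868, 0.451 and 0.204 CPM in the control libraries, 1.19, 0.569 and 0.602 at 0.1 mg/L, 1.2, 0.684 and 0.935 at 1 mg/L and 0.636, 0.606 and 0.392 at 4 mg/L. Its 4 mg/L libraries lay within the range of the controls, with a log2 fold change of 0.18 (SE 0.49, adjusted p = 0.90 in edgeR), which was -0.24 without control number 1 and 0.75 without control number 3.

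Beta crystallins assemble into oligomers in the fibre cells. The beta A gene cryba2b, with a mean of 560 CPM, stood at 757, 629.8 and 502 CPM in the control libraries, 667, 493 and 553 at 0.1 mg/L, 592, 517 and 513 at 1 mg/L and 546, 512 and 439 at 4 mg/L. In cryba1l1 the levels were 513, 475 and 417 CPM in the control libraries, 469, 469 and 461 at 0.1 mg/L, 471, 649.5 and 460.3 at 1 mg/L and 443, 538 and 307 at 4 mg/L. Both had 4 mg/L number 1 as their lowest library, and for both the 4 mg/L and control libraries overlapped. Among the beta B genes, crybb1l2 was at 405, 447 and 490.4 CPM in the control libraries, 375, 456 and 486 at 0.1 mg/L, 393, 735 and 488 at 1 mg/L and 392, 605 and 339 at 4 mg/L. The related gene crybb1l1 ran at 309, 384 and 419.8 CPM in the control libraries, 346, 476 and 438 at 0.1 mg/L, 294, 921 and 469 at 1 mg/L and 376, 689 and 260.3 at 4 mg/L. For both, 1 mg/L number 2 was the highest library of the 12 and 4 mg/L number 1 the lowest. Across the 11 tested beta crystallins the log2 fold changes at 4 mg/L lay between -0.34 (cryba2b) and 0.25 (crybb1l1), and none had libraries apart from the controls.

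Gamma N crystallins stand between the beta and gamma families in gene structure. The first, crygn2, had 340.0, 285 and 279 CPM in the control libraries, 335, 295 and 298 at 0.1 mg/L, 327, 514 and 307 at 1 mg/L and 322, 395 and 193 at 4 mg/L. The other, crygn1, had 7.61, 5.34 and 7.23 CPM in the control libraries, 6.17, 5.21 and 8.36 at 0.1 mg/L, 4.85, 10.6 and 7.71 at 1 mg/L and 5.83, 8.83 and 4.20 at 4 mg/L. The gamma M gene crygmxl2 was at 238, 185 and 177 CPM in the control libraries, 215, 179.5 and 194 at 0.1 mg/L, 212, 283 and 197 at 1 mg/L and 215, 243 and 129 at 4 mg/L, and crygmx at 93.8, 111 and 112 CPM in the control libraries, 105, 113 and 106 at 0.1 mg/L, 99.7, 167 and 112 at 1 mg/L and 96.4, 144 and 68.6 at 4 mg/L. In all 4 genes 4 mg/L number 1 was the lowest and 1 mg/L number 2 the highest of the 12 libraries, and the 4 mg/L libraries overlapped the controls.

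All 4 mg/L libraries lay below all controls in 2 crystallins, as in 8.91% of all genes, and above them in 0, as in 8.23% of all genes. The first, crygm4 (a gamma M gene near the detection limit), had 1, 6 and 1 raw counts at 4 mg/L in numbers 3, 2 and 1, against 14, 34 and 41 in the controls. In CPM these were 0.715, 1.18 and 1.196 CPM in the control libraries, 0.345, 0.180 and 2.27 at 0.1 mg/L, 0.300, 0.0311 and 1.05 at 1 mg/L and 0.0335, 0.191 and 0.0280 at 4 mg/L. The 0.1 mg/L and 1 mg/L libraries spread from above all controls (2.27 CPM) down to 0.0311 CPM, with number 1 the highest of each of these groups. Its log2 fold change at 4 mg/L was -3.59 (SE 1.18, 95% interval -6.14 to -1.04), which did not pass (adjusted p = 0.24 in edgeR, 0 of 12 fits without 1 library passing). The second, crygm2d1, was named after its values were seen. It had 446, 499 and 486 CPM in the control libraries, 414, 412 and 515 at 0.1 mg/L, 378, 415 and 475 at 1 mg/L and 329.9, 377 and 375 at 4 mg/L, and its log2 fold change was -0.40 (SE 0.15, 95% interval -0.72 to -0.09, adjusted p = 0.28 in edgeR). That p-value comes from the model with dose group alone, and whether crygm2d1 was called depended on this choice, as the closing section gives. Other differences of like size at 4 mg/L were -0.45 for crygm2e (SE 0.37, adjusted p = 0.63 in edgeR) and -0.42 for crygm2f (SE 0.29, adjusted p = 0.57 in edgeR), both with overlapping libraries.

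The 2 lower doses are compared with the same 3 control libraries, so the 3 comparisons are not independent. At 1 mg/L, 0 of 46 crystallins were called (0.067% of all genes; 0 in DESeq2 and limma-voom; 0 at an unadjusted p under 0.05, against 8.77% of all genes), although 38 of the 46 log2 fold changes lay above 0, with a median of 0.21 against -0.01 over all genes. Without 1 mg/L number 2 that median was 0.05. At 0.1 mg/L, 0 of 46 were called (0% of all genes; 0 in DESeq2 and limma-voom), the median was 0.05 (-0.02 without 0.1 mg/L number 3), and 1 crystallin, the low beta B gene crybb1l3, had an unadjusted p under 0.05 (5.01% of all genes). Its 3 libraries at 0.1 mg/L (2.68, 2.99 and 3.18 CPM in numbers 3, 2 and 1) lay above all controls (2.15, 1.63 and 1.98 CPM). So did those of 2 of the 46 crystallins in all, the other a crygm2d copy, and of 1141 of the 22399 genes tested. The gene crybb1l3 was named after its values were seen. The test for any difference among the 4 groups called 0 crystallins (0.0625% of all genes) and the trend over dose ranks 0 to 3 called 0 (0.348% of all genes), each with 0 in DESeq2 and limma-voom and 2 at an unadjusted p under 0.05 (7.76% and 13.2% of all genes).

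Between doses, 0 crystallins were called for 4 against 1 mg/L, for 4 against 0.1 mg/L and for 1 against 0.1 mg/L, where 0.00893% of all genes were called each time. At an unadjusted p under 0.05 there were 1, 3 and 0 crystallins in that order (4.72%, 6.68% and 1.95% of all genes), and DESeq2 and limma-voom called 0. For 4 against 1 mg/L, 2 of the 46 log2 fold changes lay above 0 and their median was -0.28. It stayed below 0 in all fits without 1 library, at -0.47 to -0.08, the last without 4 mg/L number 1. Without both 4 mg/L number 1 and 1 mg/L number 2 it was 0.15, a setting chosen after seeing the data. These libraries were picked for their extreme values, so leaving them out had to raise this difference. With the replicate number as a further term, the crystallin count stayed at 0 in the 3 comparisons between doses, and the counts over all genes were 15, 32 and 2 in the same order.

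**Figure D2:**
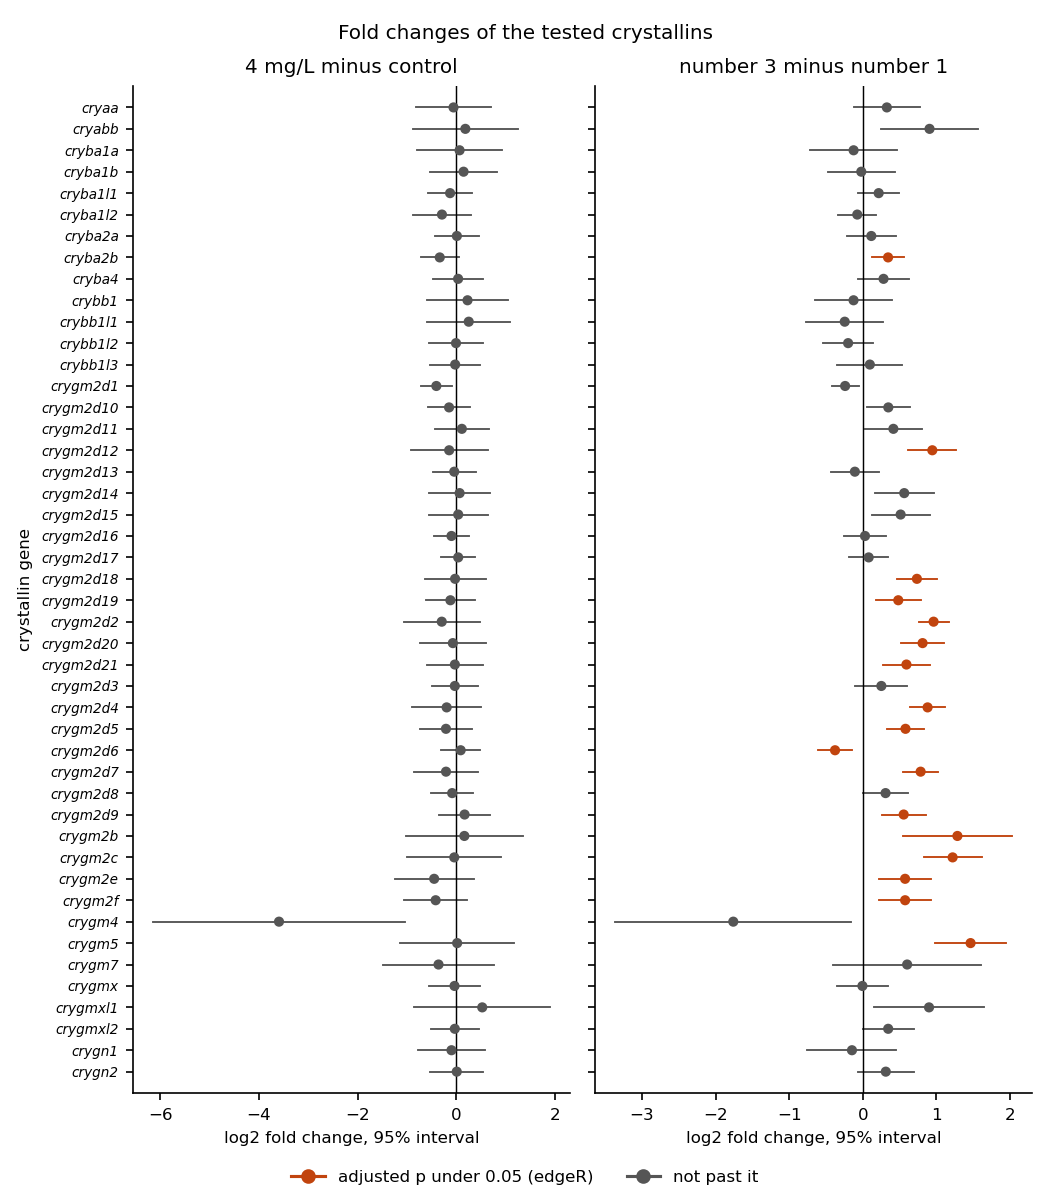
Log2 fold changes (points) with 95% intervals (lines) of the 46 tested crystallins, for 4 mg/L minus control on the left and replicate number 3 minus number 1 on the right, on axes of different scale. On the left no crystallin passes an adjusted p of 0.05 in edgeR. On the right 17 do, 16 of them above 0.

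Single libraries set the extremes for most crystallins. The library 4 mg/L number 1 was the lowest of the 12 for 38 of the 46 (82.6%, against 11.9% of all genes tested), in all 7 beta A, all 4 tested beta B, both gamma N and 18 of the 21 crygm2d genes. The library 1 mg/L number 2 was the highest for 22 of the 46 (47.8%, against 10.2% of all genes). These were 6 of the 7 beta A, 3 of the 4 tested beta B, both gamma N and 8 of the 21 crygm2d genes. The largest ratios between the highest and lowest library among crystallins above 1 CPM throughout were in the gamma M gene crygm5 and in cryaa, crybb1 and crybb1l1, at 4.09, 3.83, 3.82 and 3.54.

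The 14 lens fibre genes outside the crystallins often had these libraries as their extremes too. Of them, 11 were lowest in 4 mg/L number 1 (78.6%) and 10 highest in 1 mg/L number 2 (71.4%). Of the 15 genes of the lens epithelium and lens transcription factors, 1 and 2 were (6.67% and 13.3%, against 11.9% and 10.2% of all genes). In whole larvae this list is not confined to the lens, as it holds genes such as cdh1 (95.8 to 170 CPM) and tfap2a beside foxe3 (0.252 to 0.613 CPM). Its counts therefore do not describe the lens epithelium by itself. Beyond the lens, 29 of 37 skeletal muscle genes and 54 of 81 ribosomal protein genes were also lowest in 4 mg/L number 1. Summed muscle levels there were 67826 CPM, against 73665 to 150310 CPM in the other libraries. The part of muscle and ribosomal levels in the crystallin values of that library was not tested.

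**Figure D3:**
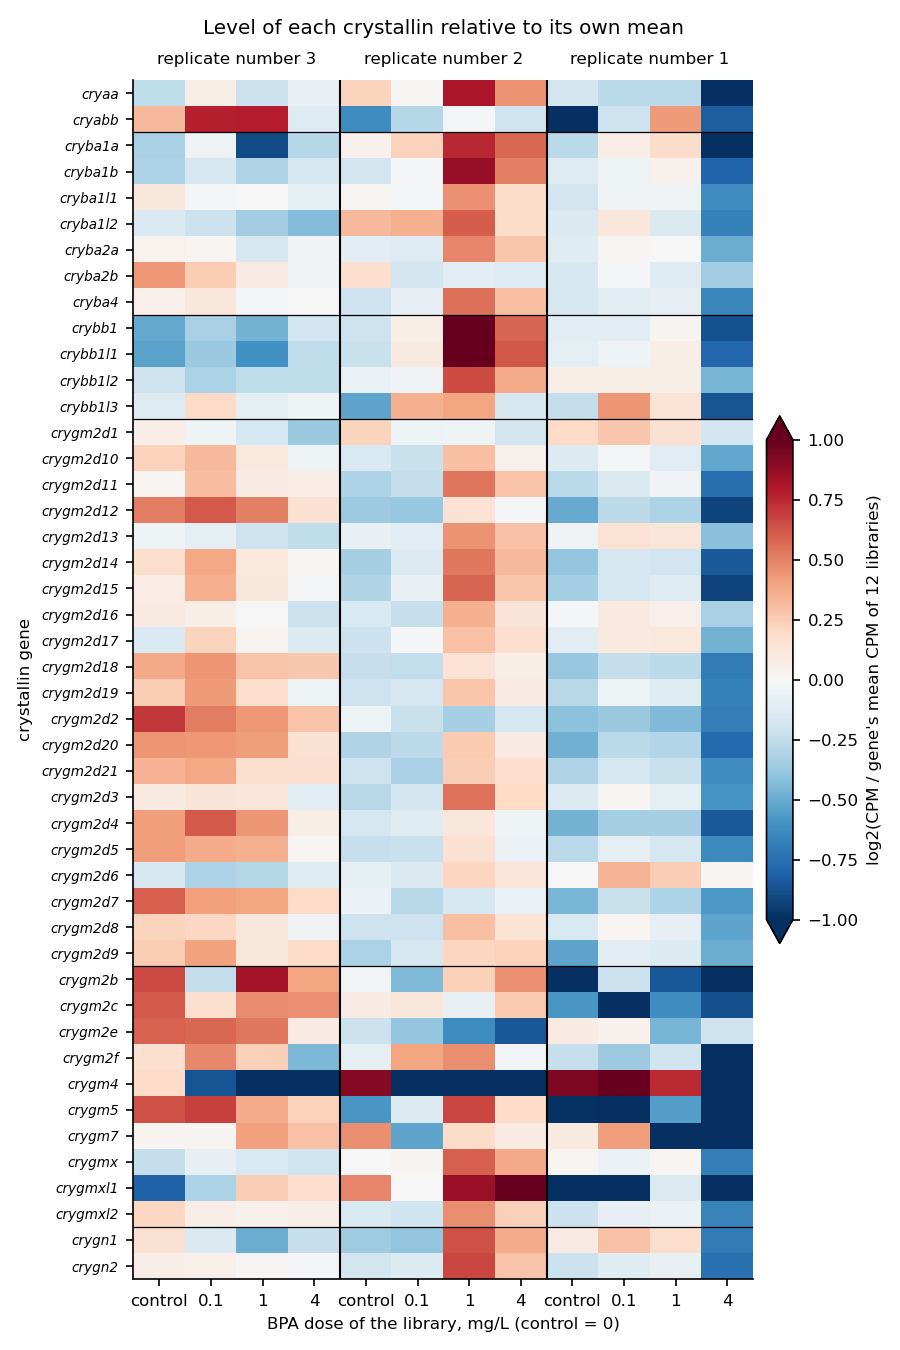
Level of each tested crystallin in each library as log2 of its CPM over its own mean of 12 libraries (red above, blue below, colours end at -1 and 1). Columns are grouped by replicate number and, within each, ordered by BPA dose in mg/L; black lines separate the classes. Red runs through most gamma rows under number 3, and 4 mg/L number 1 is blue in most rows.

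Crystallins were also compared between the replicate numbers. In a model with dose group and number, 17 of the 46 crystallins differed between numbers 3 and 1 (16 higher and 1 lower in number 3), against 19% of all genes called (10.1% higher and 8.9% lower). The median log2 fold change of the 46 was 0.34, against 0.01 over all genes tested. With no scaling factors, which shifted the median of all genes to -0.18, the crystallin median was 0.15, 12 were called and 10 of these were higher, while over all genes 1171 of 6903 calls were higher against 2264 of 4258 with TMM. With upper-quartile scaling 18 crystallins were called, all higher, and 2858 of 4333 calls over all genes were higher. The count was 10 without control number 3 or 0.1 mg/L number 3, and 11 without 1 mg/L number 1, 1 mg/L number 3 or 4 mg/L number 1. Within the 3 BPA groups alone it was 11, and within control and 4 mg/L alone 0, both chosen after seeing the data. Both fits held fewer libraries, and their counts over all genes are not given here. Over all genes the count ran between 15 and 6903 over the settings and between 2491 and 4972 without 1 library. The lower crystallin counts are therefore not read as a result about crystallins.

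Of the 17 calls, 16 were gamma M genes, the class of 31 of the 46 tested members, and 1 was a beta A gene. Of the 21 crygm2d copies 10 were higher in number 3 and 1 lower, with a median log2 fold change of 0.51. Of the 10 other tested gamma M genes 5 were higher and 0 lower. Of the 7 beta A genes 1 was higher, and of the 4 tested beta B, 2 tested alpha and 2 gamma N genes 0 were called (0 in DESeq2 and limma-voom; 0, 1 and 0 at an unadjusted p under 0.05, where 34.2% of all genes were). That calls were more frequent in 1 class than in another was not tested.

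The copy with the smallest adjusted p, crygm2d2, had 911, 798, 756 and 681 CPM in the libraries numbered 3, 539, 479, 443 and 496 in those numbered 2 and 420.1, 431, 411 and 347 in those numbered 1, ordered by rising dose with the control first. All 4 libraries numbered 3 were above all those numbered 2 and 1. Its log2 fold change was 0.96 (SE 0.09, adjusted p = 0.000587 in edgeR), higher in 4 of 4 dose groups. In crygm2d4 the values were 482, 552, 489 and 376 CPM in the libraries numbered 3, 321, 330.2, 388 and 350.1 in those numbered 2 and 259, 286, 285 and 201 in those numbered 1. For crygm2d7 they were 759, 668, 661 and 572 CPM in the libraries numbered 3, 481, 415, 446 and 480.1 in those numbered 2 and 366, 431, 404 and 338 in those numbered 1. Levels of crygm2d12 stood at 434, 465, 431 and 338 CPM in the libraries numbered 3, 236, 233, 335 and 301 in those numbered 2 and 214, 253, 245 and 160.1 in those numbered 1. In these 3 copies every library numbered 3 exceeded every library numbered 1, and in crygm2d4 the library 1 mg/L number 2 stood above 4 mg/L number 3. Their log2 fold changes were 0.88, 0.79 and 0.94 (SE 0.11, 0.11 and 0.15; adjusted p = 0.000944, 0.0013 and 0.0024 in edgeR).

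The next 3 copies were called with the same arrangement. The copy crygm2d20 had 452, 451, 446 and 370.0 CPM in the libraries numbered 3, 271, 278, 401 and 352 in those numbered 2 and 239, 277, 272 and 195 in those numbered 1. Next, crygm2d18 had 394, 412, 369 and 366 CPM in the libraries numbered 3, 259, 256, 335 and 318 in those numbered 2 and 233, 256, 253 and 187 in those numbered 1. In crygm2d5 the libraries ran at 554, 539, 531 and 421 CPM in the libraries numbered 3, 355, 356, 462 and 396 in those numbered 2 and 345, 389, 369.8 and 268 in those numbered 1. Numbers 3 and 1 did not overlap in any of the 3, and log2 fold changes were 0.81, 0.74 and 0.58 (SE 0.13, 0.12 and 0.12; adjusted p = 0.0031, 0.0032 and 0.0073 in edgeR). Of all 46 crystallins 18 had every library of number 3 above every one of number 1, where 9.96% of all genes did, and 1 had them below (8.72% of all genes). The called copies crygm2d9, crygm2d19 and crygm2d21 had log2 fold changes of 0.56, 0.48 and 0.59 and kept a call in 8, 4 and 8 of the 12 fits without 1 library, whereas the 7 copies above kept theirs in all 12 fits.

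A single copy was called in the other direction. Levels of crygm2d6, named after its values were seen, were 84.0, 75.6, 77.0 and 86.2 CPM in the libraries numbered 3, 88.4, 84.9, 109 and 102 in those numbered 2 and 94.4, 119, 112 and 95.3 in those numbered 1. Number 3 lay below number 1 in every dose group without overlap, at a log2 fold change of -0.38 (SE 0.11, adjusted p = 0.033 in edgeR), a call kept in 8 of 12 fits without 1 library and lost with upper-quartile scaling. For crygm2d1 the difference was -0.24 (SE 0.08, adjusted p = 0.068 in edgeR), lower in number 3 in 4 of 4 dose groups.

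Several gamma M genes outside the d copies were called at low levels. The gene crygm5 had 8.63, 8.93, 7.20 and 6.53 CPM in the libraries numbered 3, 3.71, 5.06, 8.82 and 6.34 in those numbered 2 and 2.80, 2.78, 3.80 and 2.18 in those numbered 1. For crygm2c the levels were 2.196, 1.61, 2.00 and 1.98 CPM in the libraries numbered 3, 1.53, 1.56, 1.37 and 1.72 in those numbered 2 and 0.962, 0.636, 0.935 and 0.784 in those numbered 1. Both had number 3 above number 1 in every dose group without overlap, with log2 fold changes of 1.47 (SE 0.22, adjusted p = 0.0020) and 1.22 (SE 0.18, adjusted p = 0.0018) in edgeR, and both calls held in all 12 fits without 1 library. Also called, crygm2b had 1.28, 0.690, 1.45 and 1.07 CPM in the libraries numbered 3, 0.798, 0.598, 0.963 and 1.12 in those numbered 2 and 0.292, 0.702, 0.453 and 0.364 in those numbered 1. It was higher in number 3 in 3 of 4 dose groups (log2 fold change 1.29, SE 0.34, adjusted p = 0.024 in edgeR), with libraries that overlapped at 0.1 mg/L, and kept its call in 7 of 12 fits. Last, crygm2e had 2.25, 2.22, 2.15 and 1.57 CPM in the libraries numbered 3, 1.28, 1.14, 0.963 and 0.829 in those numbered 2 and 1.57, 1.54, 1.08 and 1.29 in those numbered 1, and crygm2f had 3.88, 4.87, 4.10 and 2.54 CPM in the libraries numbered 3, 3.26, 4.58, 4.82 and 3.41 in those numbered 2 and 2.97, 2.71, 3.03 and 1.60 in those numbered 1. Each was higher in number 3 in 4 of 4 dose groups by a log2 fold change of 0.58, with overlap, and kept its call in 6 of 12 fits. The gene crygm4 had the largest log2 fold change in size and the other sign, -1.76 (SE 0.73, adjusted p = 0.11 in edgeR), which did not pass.

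In the beta family cryba2b was higher in number 3 in 4 of 4 dose groups, with a log2 fold change of 0.34 (SE 0.10, adjusted p = 0.033 in edgeR) and a call in 6 of 12 fits without 1 library; with no scaling factors it was 0.15 (adjusted p = 0.205). The 4 tested beta B genes had a median of -0.16. For crybb1l1 the log2 fold change was -0.25 (SE 0.24, adjusted p = 0.51 in edgeR), lower in number 3 at control, 0.1 and 1 mg/L and higher at 4 mg/L, where number 1 is the library that was lowest for most crystallins. Without that library and 1 mg/L number 2, a setting chosen after seeing the data, it was -0.54 (adjusted p = 0.025 in edgeR). As 4 mg/L number 1 was picked for its low values and is also the lowest library of crybb1l1, leaving it out had to lower this difference. That p-value therefore gives no support for a change. The gene was called in 0 of the 12 fits without 1 library.

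Number 2 against number 1 gave 0 called crystallins in edgeR (0.0938% of all genes) and 0 in limma-voom, but 6 in DESeq2, and 27 of the 46 had an unadjusted p under 0.05 (16.5% of all genes). The median log2 fold change was 0.34, with 42 of the 46 above 0. The median was 0.21 to 0.47 in the fits without 1 library. It was 0.07 without both 1 mg/L number 2 and 4 mg/L number 1, a setting chosen after seeing the data. These libraries were picked for their extreme values, so leaving them out had to lower this difference. Without control number 2, 5 crystallins were called, and 637 of all genes, against 21 in the main fit. The count over all genes in DESeq2 is not given here, so its 6 crystallin calls cannot be set against it. The test for any difference among the 3 numbers called 16 crystallins (15.1% of all genes), and 32 had an unadjusted p under 0.05 (33.2% of all genes). Of these, 3 had no call for number 3 against 1. The beta A gene cryba1l2 had 11.5, 10.9, 10.00 and 9.41 CPM in the libraries numbered 3, 15.9, 16.3, 19.3 and 14.4 in those numbered 2 and 11.5, 13.7, 11.5 and 7.95 in those numbered 1 (adjusted p = 0.0077 in edgeR). In each dose group its library numbered 2 was the highest, and the call held in all 12 fits without 1 library. The gamma M gene crygmxl1, named after its values were seen, had 0.409, 0.575, 0.850 and 0.804 CPM in the libraries numbered 3, 1.01, 0.718, 1.30 and 1.50 in those numbered 2 and 0.292, 0.301, 0.652 and 0.196 in those numbered 1 (adjusted p = 0.015 in edgeR), also with number 2 the highest in each dose group. The remaining gene, cryaa, passed at an adjusted p of 0.040 in edgeR but in 3 of 12 such fits, with number 2 the highest library in all dose groups but 0.1 mg/L.

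The mix of classes followed the number as well. The crygm2d copies took 66.9, 67.5, 67.1 and 63.6% in the libraries numbered 3, 60.0, 58.7, 53.7 and 56.6 in those numbered 2 and 58.9, 60.5, 59.1 and 61.9 in those numbered 1 of the crystallin counts, ordered by rising dose with the control first. All 4 shares of number 3 lay above all 8 others, and they averaged 66.2 ± 1.81% in number 3, 57.2 ± 2.76% in number 2 and 60.1 ± 1.37% in number 1 (SD, n = 4 each). The beta B genes took 8.38, 8.74, 8.88 and 10.9% in the libraries numbered 3, 12.4, 14.3, 18.4 and 16.2 in those numbered 2 and 14.2, 13.1, 14.0 and 11.9 in those numbered 1. Every share of number 3 was below every other one, at 9.23 ± 1.15% in number 3, 15.3 ± 2.58% in number 2 and 13.3 ± 1.02% in number 1. The share of a class falls when another class rises, so the 2 shifts are not independent. In CPM the beta B sums of number 3 (976 to 1119) overlapped those of number 1 (818 to 1364) and lay below those of number 2 (1176 to 2487). No test was run on these sums.

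Within the crygm2d copies the balance moved too. Of all counts of the 21 copies, crygm2d2 took 10.5 ± 0.67% in number 3 and 7.61 ± 0.51% in number 1, and crygm2d7 8.90 ± 0.52% and 7.27 ± 0.49%. On the other side crygm2d1 took 5.24 ± 0.26% in number 3 and 8.71 ± 0.36% in number 1, crygm2d13 3.76 ± 0.17% and 5.69 ± 0.17%, and crygm2d6 1.09 ± 0.16% and 1.99 ± 0.20% (SD, n = 4 each). A share also falls when other copies rise. The level of crygm2d13 itself had a log2 fold change of -0.11 between numbers 3 and 1 (adjusted p = 0.65 in edgeR). If reads were shared out between copies, such shares carry the error of that step.

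The copies lie in a row on 1 chromosome in the RefSeq gene table of assembly GRCz12tu, which is another build than the GRCz10 of the files, so that only their order is used. The places of crygm2d8, crygm2d9, crygm2d17 and crygm2d18 are uncertain, since the gene name table calls crygm2d17 and crygm2d18 what the files call crygm2d8 and crygm2d9. Of the first 9 copies in this row, up to crygm2d6, 1 was called higher in number 3 and 1 lower, with a median log2 fold change of 0.31. Of the 12 copies after it, 9 were called higher and 0 lower, with a median of 0.59. This division was made after seeing the values and was not tested. In the same table crybb1l1 lies next to cryba1l1, crybb1l2 next to cryba1l2, crybb1 next to cryba4 and crybb1l3 next to cryba1a, each pair with 0 genes between. The beta B gene had the lower log2 fold change between numbers 3 and 1 in 3 of the 4 pairs (-0.25 and 0.22, -0.20 and -0.07, -0.13 and 0.28), and the higher one in the fourth (0.10 for crybb1l3 and -0.12 for cryba1a), with none of the 8 called.

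**Figure D4:**
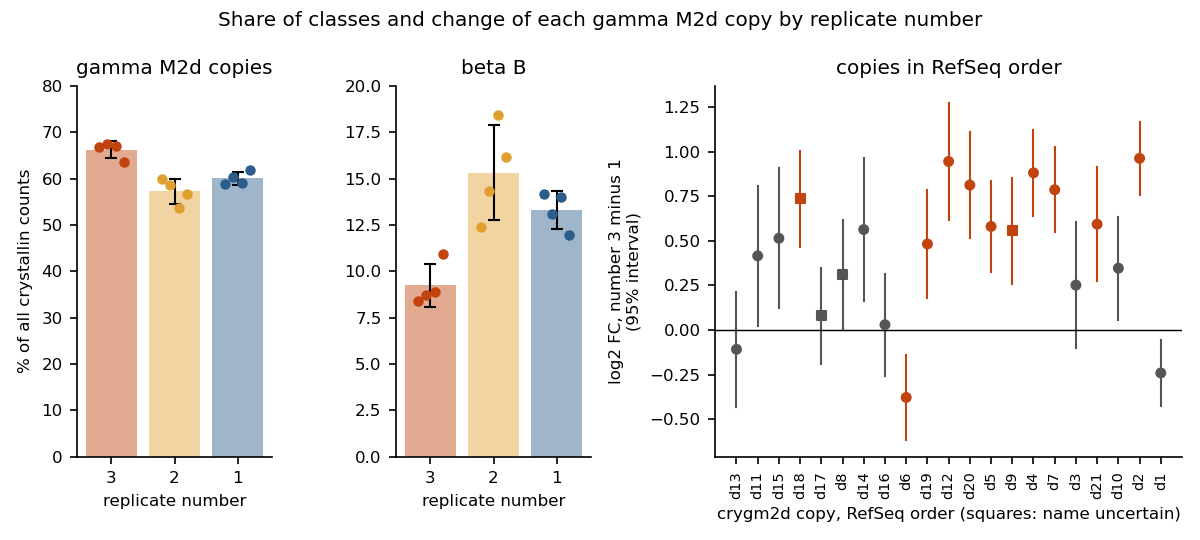
Left and middle, share of all crystallin counts in % taken by the gamma M2d copies and the beta B genes, for replicate numbers 3, 2 and 1 (bars are means of 4 libraries, error bars SD, points libraries). Right, log2 fold change of number 3 minus number 1 with its 95% interval for the 21 copies in their RefSeq order, red where the adjusted p is under 0.05 and square where the name is uncertain. Number 3 stands above the others on the left and below them in the middle, and the red points lie mostly in the right part of the row.

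Other lens fibre genes were tested for comparison, as a list named with earlier results known. At 4 mg/L 0 of the 14 were called (1 in DESeq2, lower, and 0 in limma-voom), with a median log2 fold change of -0.06 against control. At an unadjusted p under 0.05 there was 1 of the 14, against 12.4% of all genes. The nearest was grifin, a galectin-related lens protein gene, at 8.22, 8.64 and 7.06 CPM in the control libraries, 9.20, 7.51 and 6.59 at 0.1 mg/L, 7.65, 9.38 and 5.92 at 1 mg/L and 4.86, 5.58 and 3.67 at 4 mg/L. Its 4 mg/L libraries were all below all others, but the log2 fold change of -0.76 (SE 0.20) had an adjusted p of 0.16 in edgeR. Between numbers 3 and 1, 5 of the 14 were called, all higher in number 3 (3 in DESeq2 and 4 in limma-voom, against 10.1% of all genes called higher in edgeR), with a median of 0.10. The membrane protein gene lim2.4 led them with 112, 120.2, 99.1 and 87.2 CPM in the libraries numbered 3, 75.7, 69.8, 90.4 and 77.8 in those numbered 2 and 64.0, 67.6, 68.2 and 47.4 in those numbered 1, a log2 fold change of 0.76 (SE 0.12, adjusted p = 0.0020 in edgeR), followed by lim2.1, lim2.2, tdrd7a and grifin. Of these, tdrd7a (0.112 to 1.03 CPM over the libraries) and lim2.2 (0.671 to 1.84 CPM) were at low levels. The water channel genes mipa and mipb had log2 fold changes of -0.18 and -0.12 and the filament gene bfsp2 -0.02, none called.

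**Figure D5:**
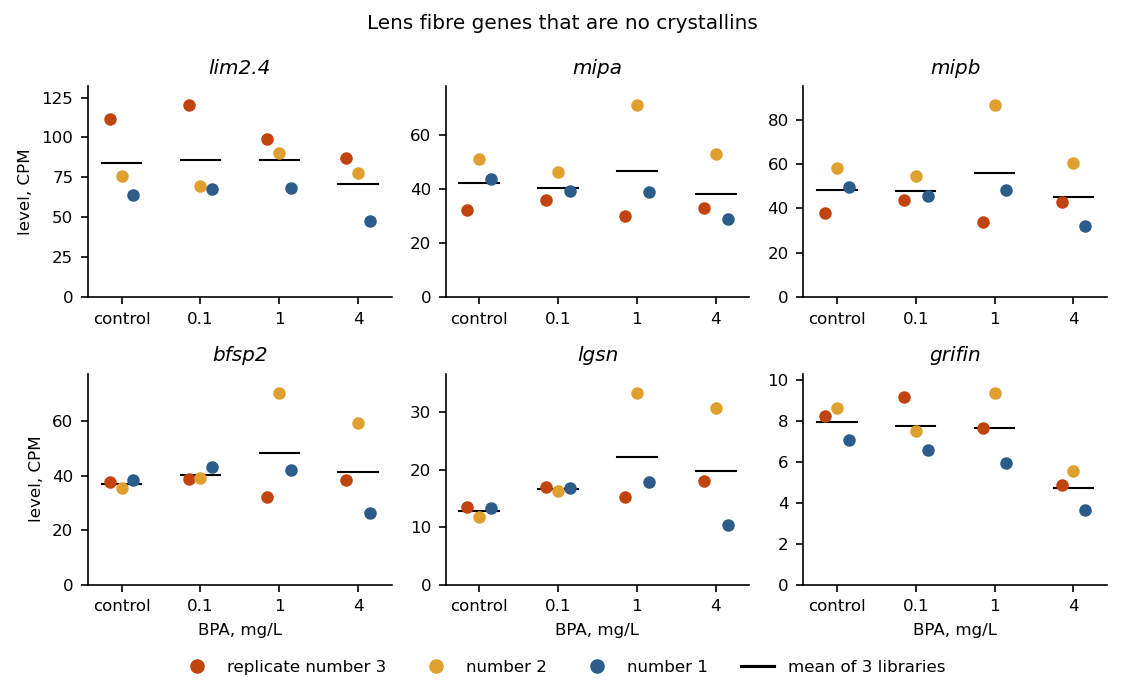
Level of 6 lens fibre genes that are no crystallins in CPM on linear axes from 0, by BPA dose in mg/L; points are libraries coloured by replicate number and lines are means of 3. In lim2.4 number 3 is the highest library of every dose group, while mipa, mipb, bfsp2 and lgsn have 1 mg/L number 2 as their highest library, and all 3 libraries of grifin at 4 mg/L lie below the rest.

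Genes of the lens epithelium and lens transcription factors had a median log2 fold change of 0.01 at 4 mg/L (0 of 15 called in edgeR, DESeq2 and limma-voom, 0 at an unadjusted p under 0.05) and -0.23 between numbers 3 and 1, where 0 were higher and 2 of 15 lower in number 3, pitx3 and mafbb (1 in DESeq2, 2 in limma-voom, against 8.9% of all genes called lower in edgeR). That list, as given above, is not confined to the lens. Of the 9 small heat shock protein genes, relatives of the alpha crystallins, 0 were called at 4 mg/L (also 0 in DESeq2 and limma-voom). At an unadjusted p under 0.05 there were 2 of the 9, against 12.4% of all genes. Between numbers 1 of the 9 was called, hspb15, higher in number 3, where 10.1% of all genes were called higher. Of 6 genes with crystallin names outside the lens families 0 were called in either comparison in edgeR. Each comparison had 1 of the 6 at an unadjusted p under 0.05, against 12.4% of all genes at 4 mg/L and 34.2% between numbers. DESeq2 and limma-voom called 0 at 4 mg/L and 1 between numbers, lower in number 3.

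Other gene lists were counted between numbers 3 and 1 beside the gamma crystallins, where 10.1% of all genes were called higher and 8.9% lower. Of 37 skeletal muscle genes 23 were higher and 1 lower in number 3, with summed levels of 90949 to 150310 CPM in number 3, against 67826 to 98390 CPM in number 1. Of 81 ribosomal protein genes 75 were higher and 0 lower, at 113450 to 135810 CPM in number 3 and 77887 to 96536 CPM in number 1. Of 21 cell cycle genes 0 were higher and 21 lower, at 608 to 893 CPM in number 3 and 916 to 1391 CPM in number 1. Of 45 rod and cone photoreceptor genes 1 was higher and 21 lower, at 4294 to 6466 CPM in number 3 and 5357 to 9685 CPM in number 1. Of 16 cornea and epidermis genes 5 were higher and 1 lower. Of 21 inner retina genes 2 were higher and 2 lower, and only this list was near the 19% of all genes called. Of 15 pigment epithelium and pigment cell genes 0 were called in edgeR and limma-voom and 1 in DESeq2, with 5 at an unadjusted p under 0.05 (34.2% of all genes). At 4 mg/L against control edgeR called 1 gene of these 7 lists, a muscle gene that was lower, against 0.281% of all genes. In limma-voom 1 muscle gene was called, lower. DESeq2 called 6 of the 37 muscle genes, all lower, and 1 pigment gene, higher. The share of all genes called by DESeq2 is not given here, so its 6 muscle calls cannot be set against it. All tested genes of the muscle, ribosomal and cell cycle lists had counts in every library. The part of these groups in the crystallin differences was not tested.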

How the data were processed

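Stranded poly-A libraries were made out of 500 ng RNA with 15 PCR cycles and read in pairs of 76 bases, per the labels' protocols. Per the submitters' processing notes, the build was GRCz10 and the tools named, with no role, were DESeq2 1.10.1, RSEM 1.2.28, STAR 2.5.1b and CASAVA. Neither the strand setting of the counting nor its handling of reads shared between copies is stated there. The files deposited by the authors hold whole-number counts per gene, not normalized. They may be RSEM's estimated counts rounded, and 0 values were not whole. Every row names a gene, and 0 columns belonged to other samples.

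Groups and replicate numbers come from the titles. The filterByExpr filter (minimum count 10, total 15) was applied, and counts were scaled by TMM and fitted over all 12 libraries in edgeR 4.0.16 (R 4.3.3, quasi-likelihood F test, two-sided, Benjamini-Hochberg adjustment over 22399 genes at 0.05). The dose comparisons used group alone and the replicate comparisons group and number. The replicate comparisons thus treated the control's numbers as matching those of the BPA groups, which is not settled. In the 3 BPA groups alone, a fit with fewer libraries, number 3 against 1 had 11 called crystallins, against 17. The count over all genes in that fit is not given here. Dose results with the number as a further term differed and are given in the closing section. SE is the absolute log2 fold change over the square root of F. The fits were tested on simulated data. DESeq2 1.42.0 and limma 3.58.1 were alternatives. Members and gene lists were chosen with earlier results of these data known.

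The 27 members given library by library were the 3 alpha genes, the 2 of highest mean CPM in each other class, up to 10 members called with the smallest adjusted p, and the 3 largest fold changes at 4 mg/L against control and at number 3 against 1 among genes whose mean was at least 1 CPM in the higher group. Any other member named was chosen after its values were seen. Of the 57 identifiers 52 matched the gene name table, and all 57 symbols matched RefSeq's table of GRCz12tu. Same-numbered libraries of 2 BPA groups deviated together from their group means (correlation 0.233 to 0.513 over all genes tested, above 0.1 in each pair), so the numbers pair the libraries between doses; the rule was not met with the control.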

Additional observations from a re-analysis of the deposited data

How the results depend on the processing

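Every count of called crystallins for the 3 doses against control, and between doses, was 0 in all fits without 1 library and in every other setting except with the replicate number as a block. With that block 1 crystallin was called at 4 mg/L against control (crygm2d1, log2 fold change -0.41, adjusted p = 0.039 in edgeR) and 2 in the trend over dose ranks (crygm2d1 and crygm4), and over all genes 1094 were called at 4 mg/L against 63 (16 to 1094 over the settings, 14 to 106 without 1 library). Between the control and the doses the numbers were not taken to pair the libraries, because of number 2. Same-numbered correlations with control over all genes were 0.21, 0.251 and 0.385 for number 1 (at 0.1, 1 and 4 mg/L). They were 0.455, 0.398 and 0.292 for number 3 and 0.0023, -0.238 and -0.0946 for number 2. Over the crystallins alone those of number 2 were 0.342, 0.114 and 0.628. Counting each of the 12 libraries once against every other group, 29 of 36 comparisons were best with the library's own number. These comparisons share libraries and are not independent. The best matches with the own number were 4, 3 and 4 of 6 for the doses against control and 6 of 6 for each pair of BPA groups. Whether the numbers pair the control with the doses is therefore not settled, and both results are given. For number 3 against 1 the 17 calls became 9 at an adjusted p under 0.01, 7 with the crygm2d copies summed, 12 without 1 mg/L number 2 and 4 mg/L number 1, 11 in the 3 BPA groups, 0 in control and 4 mg/L alone, and 10 to 20 without 1 library. Over all genes the count there was 4258, with 15 to 6903 over the settings and 2491 to 4972 without 1 library. For number 2 against 1 the 0 calls became 6 in DESeq2, 2 in the 3 BPA groups and 0 to 5 without 1 library. Over all genes that count was 21, with 0 to 587 over the settings and 0 to 637 without 1 library. For any difference among numbers the 16 calls became 25 in DESeq2, 9 at an adjusted p under 0.01, 7 with the copies summed, 0 in control and 4 mg/L alone, and 10 to 27 without 1 library. Over all genes that count was 3380, with 0 to 5752 over the settings and 1427 to 5533 without 1 library. The counts over all genes thus moved widely as well. Some of these fits, but not all, held fewer libraries or features. With the copies summed, the 21 copies counted as 1 feature, so for number 3 against 1 the 11 calls of single copies could not recur. Of the 7 calls then made, 6 were also called in the main fit, and these were all its calls outside the copies. The remaining call is not named here, so whether the sum itself was called is not given. For any difference among numbers 7 of 7 were also called in the main fit, so the sum itself was not called. The cause of the shifts was not tested. The log2 fold change of cryaa at 4 mg/L, -0.06, was 0.072 with no scaling factors and 0.27 without both libraries, and -0.45 to 0.27 without 1 library (0.11 without control number 2, 0.27 without 4 mg/L number 1). That of cryabb, 0.18, was -0.24 to 0.75 without 1 library, the lowest without control number 1. The settings with no scaling factors, without both libraries and with fewer dose groups were chosen after seeing the data. Summed crystallins had a log2 ratio of 0.06 at 4 mg/L over control by library totals and -0.08 by TMM-scaled totals, and of 0.15 and 0.34 for number 3 over 1; without the crygm2d copies the ratio for number 3 over 1 was -0.09 by library totals, while the TMM-scaled sums were 3789 CPM in number 3 and 3552 CPM in number 1, so its sign turned with the scaling. The 95% intervals of the crystallins' log2 fold changes at 4 mg/L had a median width of 1.195, which with 3 libraries a group limits the size of change that could be seen, and copies that share reads limit any statement on 1 copy.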
